A study of Homo sapiens with 6 samples.

Results

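The insulin-like growth factor (IGF) binding proteins are a family of secreted proteins encoded by IGFBP1 to IGFBP7. The 7 genes were chosen by name. In libraries labelled HepG2, 6 of the 7 had a row in the count table of 27452 rows, and IGFBP5 was not analysed here. Of those 6, 5 passed the filter on low counts and were tested, and IGFBP2 did not pass. A line made with a short hairpin RNA (shRNA) against STAT3 (3 libraries) was set against a line made with a control shRNA (3 libraries). Both lines are labelled HepG2. Both grew in DMEM with serum (FBS) and antibiotics, and total RNA was sequenced. HepG2 is an established human liver cancer line. STAT3 is a transcription factor activated by cytokines such as interleukin 6. The labels number the libraries 1 to 3 but do not say whether they are separate cultures, clones or hairpins, so the p-values below rest on a spread that may be technical. Effects of the hairpin and other differences between the constructed lines cannot be told apart.

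IGF1 and IGF2 are growth factors that act through the receptor IGF1R. The classical binding proteins, IGFBP1 to IGFBP6, hold the IGFs with high affinity in blood and tissue fluid, and so keep them from the receptor or deliver them to it. Proteases such as the pappalysin PAPPA cut the binding proteins and free the growth factor. IGFBP7 binds IGFs only weakly and is often placed among the IGFBP-related proteins. In the liver, IGFBP1 is a secreted product of hepatocytes that fasting and stress induce and insulin represses through the FOXO1 transcription factor.

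Library depth was 17694642 to 25862027 counts in the STAT3 shRNA libraries and 17408543 to 20133064 in the control libraries. A gene with 0 counts could therefore lie at up to 0.113 to 0.164 CPM (counts per 1000000 of the scaled library) in a STAT3 shRNA library and 0.158 to 0.175 CPM in a control library. This floor is 3 counts and allows for counting error alone. STAT3 had 34.8, 35.8 and 36.2 CPM with the STAT3 shRNA and 261.5, 246.7 and 246.3 CPM with the control shRNA, so each library carried the STAT3 level its label names. Most markers of the labelled cell type that could be read were at or near the floor, which goes against the label HepG2. Of 17 hepatocyte and hepatoblastoma markers, 9 had a row and 3 reached 1 CPM in any library, and ALB (albumin) had at most 3 counts in any library. The hepatocyte list summed to 7.03 to 10.02 CPM with the STAT3 shRNA and 4.14 to 4.955 CPM in the control libraries. HNF4A, the hepatocyte nuclear factor, rose in the STAT3 shRNA libraries (4.96 to 7.56 CPM, against 1.28 to 1.79 CPM in control libraries). HNF4A alone gave most of the list sum with the STAT3 shRNA. TF averaged 0.81 CPM with the STAT3 shRNA and 1.59 CPM in the control libraries. RBP4 averaged 1.14 CPM with the STAT3 shRNA and 1.31 CPM in the control libraries, and neither TF nor RBP4 was called. The bile duct epithelial list summed to 874 to 979.7 CPM with the STAT3 shRNA and 1027 to 1299 CPM in the control libraries. Of its 4 genes with a row, the keratin gene KRT7, which makes up most of that sum, fell, while the keratin gene KRT19 (0.69 ± 0.116) and the epithelial adhesion gene EPCAM (1.78 ± 0.161) rose. In bulk RNA, fewer cells of a type and less RNA per cell cannot be told apart.

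The binding protein genes moved in different directions with the STAT3 shRNA. IGFBP1 was 9.45-fold and IGFBP6 2.44-fold higher in the STAT3 shRNA libraries, IGFBP7 was 2.45-fold lower, and IGFBP3 and IGFBP4 did not pass the test. Of 5 tested members, 2 rose and 1 fell (edgeR quasi-likelihood test, adjusted p under 0.05, Benjamini-Hochberg over 14999 genes). Of all tested genes 17.5% were called, 9.39% higher and 8.13% lower. The 3 libraries of each group did not overlap for 4 of the 5 tested members, against 35.7% of all tested genes. IGFBP1 passed the filter only through the STAT3 shRNA group, where it is high, so the count of called members describes these genes and supports no statement about the family. When libraries were scaled by their totals alone, 68.7% of the called genes were higher, against 53.6% with the TMM factors used here, which correct for library composition.

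**Figure D1:**
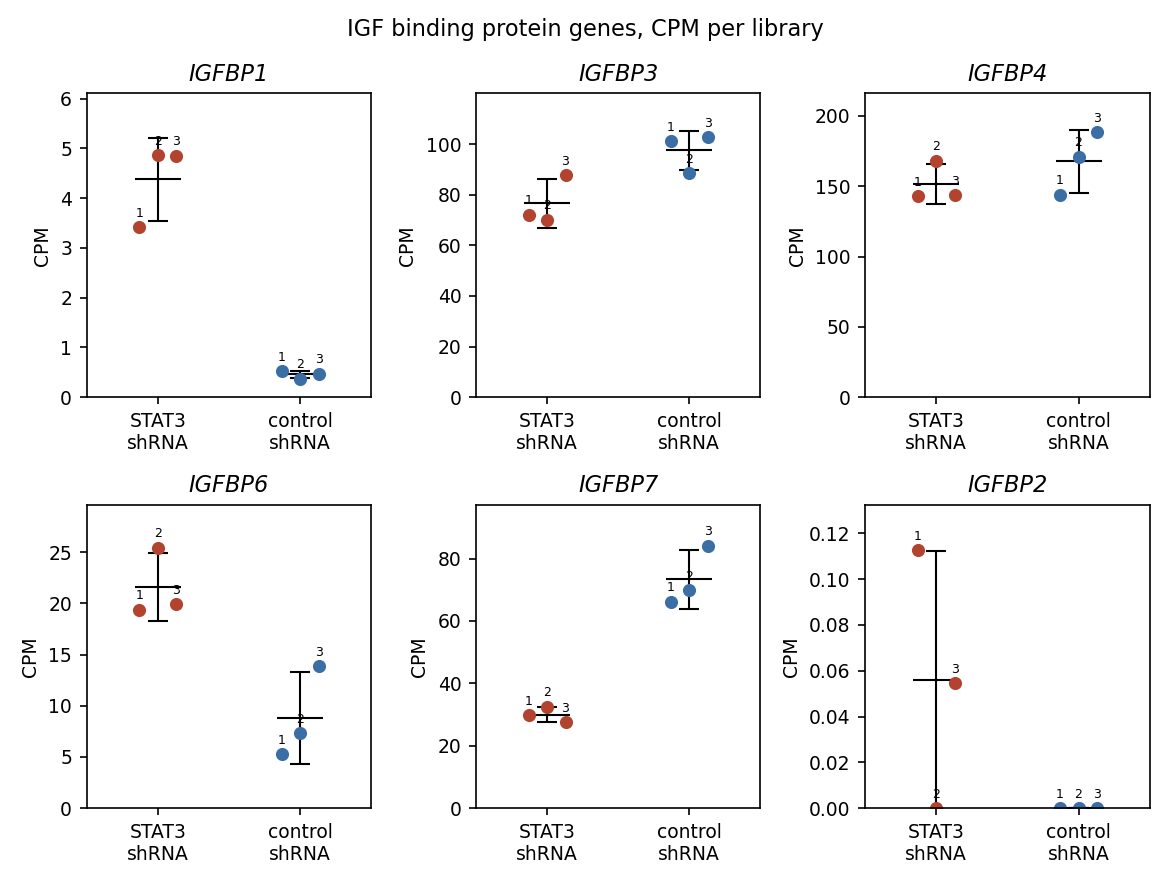
CPM of the 6 IGF binding protein genes with a row, by group; each point is 1 library, numbered as in the labels, and black marks give mean ± SD (n = 3 per group). IGFBP1 and IGFBP6 lie higher and IGFBP7 lower in all 3 STAT3 shRNA libraries, and IGFBP2 lies at or under the counting floor in every library.

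IGFBP1, which inhibits IGF action and carries an integrin-binding motif, had 91, 99 and 89 counts in the STAT3 shRNA libraries and 9, 7 and 9 counts in the control libraries. On the CPM scale these were 3.42, 4.86 and 4.85 in the STAT3 shRNA libraries, against 0.525, 0.374 and 0.474 in the control libraries. Each STAT3 shRNA library stood far above each control library. The means were 4.38 ± 0.830 CPM with the STAT3 shRNA and 0.458 ± 0.0770 CPM with the control shRNA (SD, n = 3 per group). The change on the log2 scale was 3.24 ± 0.289 (SE; edgeR adjusted p = 0.000117), with a 95% interval of the fold of 6.01 to 14.8. Among the 1408 genes called higher, 77 had a larger fitted change. The control level rests on under 10 counts a library.

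IGFBP6, which prefers IGF2 over IGF1, lay at 19.4, 25.4 and 19.95 CPM with the STAT3 shRNA and at 5.25, 7.31 and 13.9 CPM in the control libraries. The groups did not overlap, but the control libraries spread widely, with control library 3 nearest to the STAT3 shRNA libraries. The counts behind these values were 516, 518 and 366 in the STAT3 shRNA libraries and 90, 137 and 263 in the control libraries. Its log2 fold change came to 1.29 ± 0.323 (edgeR adjusted p = 0.0313). Of 3831 tested genes within 2-fold of its mean level, 98.4% had a smaller SE, with a median of 0.138. The call is the least stable of the 3: it was lost in 5 of 14 alternative fits, with an adjusted p of 0.111 without control library 2, 0.0709 without STAT3 shRNA library 1, 0.0855 without STAT3 shRNA library 2, 0.0722 without STAT3 shRNA library 3 and 0.168 with no filter on low counts. Over all 14 alternatives the adjusted p ran from 0.000193 to 0.168. Without control library 3 the log2 fold change was 1.78, and without control library 1 it was 1.04, both called. Control libraries 1 and 3 also lay farthest apart among the control libraries on the second principal component of all tested genes, at 34.3 and -22.1, and the part of this spread in the IGFBP6 result was not tested.

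Promoter sequence from RefSeq (GRCh38.p14) was matched for 5 of the 7 genes, all but IGFBP1 and IGFBP7. The 250 bases before the annotated start are shown for IGFBP6, the called member with an entry, beside IGFBP4 and IGFBP3, which were not called. Capitals mark matches, on either strand, to TTCNNNNGAA or to the forkhead core GTAAACA. The windows are chr12:53097417-53097666 on the plus strand, chr17:40443200-40443449 on the plus strand and chr7:45921273-45921522 on the minus strand.
IGFBP6: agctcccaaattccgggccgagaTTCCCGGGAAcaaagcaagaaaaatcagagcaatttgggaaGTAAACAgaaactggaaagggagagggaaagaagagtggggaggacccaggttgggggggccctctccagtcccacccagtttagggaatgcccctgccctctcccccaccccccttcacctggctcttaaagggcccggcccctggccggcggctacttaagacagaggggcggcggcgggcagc
IGFBP4: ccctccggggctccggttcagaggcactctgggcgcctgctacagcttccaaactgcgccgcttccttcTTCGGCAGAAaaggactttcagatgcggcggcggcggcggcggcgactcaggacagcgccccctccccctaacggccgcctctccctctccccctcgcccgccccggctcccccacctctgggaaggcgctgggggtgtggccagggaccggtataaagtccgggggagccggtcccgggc
IGFBP3: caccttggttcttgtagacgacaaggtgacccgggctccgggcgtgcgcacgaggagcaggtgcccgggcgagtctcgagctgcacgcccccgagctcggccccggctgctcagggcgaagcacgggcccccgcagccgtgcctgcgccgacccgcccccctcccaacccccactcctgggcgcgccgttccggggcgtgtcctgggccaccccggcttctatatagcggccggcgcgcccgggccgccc

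The STAT-type spacing TTCNNNGAA was found in none of the windows of these 3 genes, and in 6.57% of 35116 RefSeq windows of this length. The wider spacing TTCNNNNGAA, added after the IGFBP6 sequence had been read, occurred in IGFBP6 with its first base 227 bases before the start, and in IGFBP4 181 bases before it. It was present in 5.38% of all windows. That share cannot measure its rarity in IGFBP6, since the motif was added after that window had been read. The forkhead core GTAAACA, which FOXO factors can bind, occurred in the IGFBP6 window 186 bases before the start and in 2.98% of all windows. Neither TTCNNNNGAA nor GTAAACA occurred in the windows of IGFBP2, IGFBP3 or IGFBP5. The motif letters do not overlap each other in the IGFBP6 window. These matches describe letters and not binding.

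IGFBP7, a secreted protein abundant in blood vessel walls and stroma, was the member that fell. It lay at 29.8, 32.5 and 27.6 CPM with the STAT3 shRNA and at 66.1, 69.8 and 84.1 CPM in the control libraries. The groups were well apart, with every STAT3 shRNA library below every control library. The log2 fold change was -1.29 ± 0.120 (edgeR adjusted p = 0.000140), with a 95% interval of the fold of 0.339 to 0.493. It held in all 14 alternative fits, between -1.35 and -1.17. In the GENCODE 29 annotation IGFBP7 overlaps POLR2B, an RNA polymerase II subunit gene on the opposite strand, and the strand setting of the libraries is not given in the sources used here. POLR2B itself had a log2 fold change of -0.08 ± 0.0938 and did not pass the test. The antisense gene IGFBP7-AS1 had 0 counts in each STAT3 shRNA library and 0, 0 and 2 counts in the control libraries.

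Markers of other cell types were read beside IGFBP7. Of 9 fibroblast and stellate cell markers, 7 had a row and 4 reached 1 CPM. They summed to 42.5 to 45.3 CPM with the STAT3 shRNA and 56.3 to 65.7 CPM in the control libraries. Without COL1A1 the other 6 summed to 30.25, 28.5 and 28.2 CPM in the STAT3 shRNA libraries and 21.8, 18.0 and 22.2 CPM in the control libraries, which is the opposite order. COL1A1, a collagen chain, fell to 14.3 to 16.5 CPM in the STAT3 shRNA libraries, against 38.3 to 43.5 CPM in the control libraries, while ACTA2, smooth muscle actin, rose. Neither DCN (14.6 ± 0.765 CPM with the STAT3 shRNA and 11.9 ± 1.68 CPM in the control libraries) nor PDGFRB (6.06 ± 0.674 CPM with the STAT3 shRNA and 4.82 ± 0.809 CPM in the control libraries) was called, and THY1 had too few counts to be tested. COL3A1 had at most 8 counts and LUM at most 7 in any library. Of 7 endothelial markers, 5 had a row, and they summed to 1.35 to 2.23 CPM with the STAT3 shRNA and 1.28 to 1.81 CPM in the control libraries, with the endothelial genes TEK and STAB2 at 3 counts or fewer. The others did not move as one: VWF had 10, 19 and 15 counts with the STAT3 shRNA and 1, 0 and 3 in the control libraries and was not tested, and CDH5 averaged 0.750 ± 0.145 CPM with the STAT3 shRNA and 1.31 ± 0.394 CPM in the control libraries and was not called. Of 6 immune cell markers, 3 had a row and only CD68 reached 1 CPM. The 3 summed to 20.8 to 28.02 CPM with the STAT3 shRNA and 10.7 to 15.75 CPM with the control shRNA. CD68 made up nearly all of that sum, at 24.2 ± 3.77 CPM with the STAT3 shRNA and 13.6 ± 2.73 CPM in the control libraries. It was called higher (edgeR adjusted p = 0.0105). CD14 had at most 5 counts and ITGAM at most 2 in any library. The part of the collagen difference in the IGFBP7 result was not tested.

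IGFBP3, the main carrier of IGFs in blood, lay at 72.0, 70.1 and 87.8 CPM with the STAT3 shRNA and at 101.1, 88.6 and 102.7 CPM in the control libraries. The groups touched without overlapping, STAT3 shRNA library 3 lying just under control library 2. The log2 fold change was -0.35 ± 0.112 with an edgeR adjusted p of 0.0632, and the 95% interval of the fold, 0.659 to 0.936, covers this gene alone, before adjustment. The gene was called in 3 of 14 alternative fits, by DESeq2 (adjusted p = 0.0341), with no filter on low counts (edgeR adjusted p = 0.0366) and without STAT3 shRNA library 3 (edgeR adjusted p = 0.0473). Over the 14 alternatives its adjusted p ran up to 0.241. IGFBP3 and IGFBP1 are direct neighbours on chromosome 7, on opposite strands. IGFBP1 was called higher and IGFBP3 had a negative log2 fold change.

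IGFBP4, an inhibitor of IGF action that PAPPA cuts, lay at 142.9, 168.1 and 143.5 CPM with the STAT3 shRNA and at 143.9, 171.0 and 188.4 CPM in the control libraries. The groups overlapped. The log2 fold change was -0.15 ± 0.118 (edgeR adjusted p = 0.432), with a 95% interval of the fold of 0.751 to 1.09. It was called in 0 of 14 alternatives, whose adjusted p ran from 0.118 to 0.818. IGFBP2, a binding protein common in liver and in many tumours, had 3, 0 and 1 counts in the STAT3 shRNA libraries and 0 in each control library, at or under the floor throughout, so no fold is given.

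Scaled to transcript length, IGFBP4 led in both groups, with 68.9 ± 6.54 CPM per kb in the STAT3 shRNA libraries and 76.3 ± 10.2 CPM per kb in the control libraries (SD, n = 3 per group). In the STAT3 shRNA libraries IGFBP3 followed at 31.8 ± 4.02 CPM per kb, then IGFBP7 at 21.0 ± 1.73, IGFBP6 at 18.35 ± 2.84 and IGFBP1 at 2.65 ± 0.502. IGFBP7 and IGFBP6 overlapped there, at 19.4 to 22.8 and 16.5 to 21.6 CPM per kb, and traded places when the union of exons was used as length. With that length IGFBP3 lay at 16.8 ± 2.12 CPM per kb in the STAT3 shRNA libraries, beside 16.0 ± 2.48 for IGFBP6 and 15.5 ± 1.28 for IGFBP7, and the 3 genes overlapped. In the control libraries the order was IGFBP4, IGFBP7 at 51.4 ± 6.64 CPM per kb, IGFBP3 at 40.4 ± 3.22, IGFBP6 at 7.48 ± 3.82 and IGFBP1 at 0.277 ± 0.0466. No pair of neighbours overlapped in that order. These levels rest on the longest annotated transcript, which the cells need not use.

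**Figure D2:**
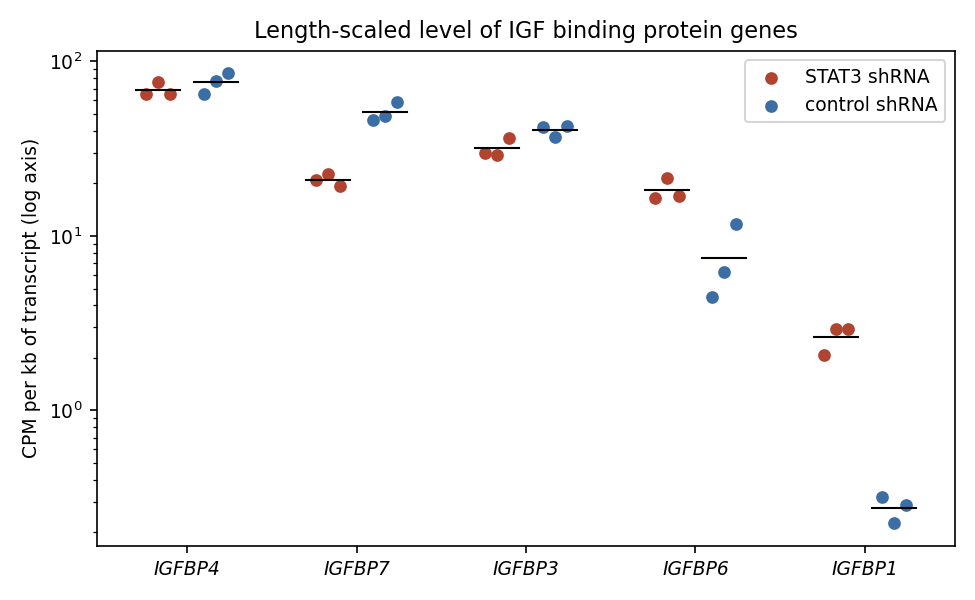
Level per kb of longest annotated transcript (log axis) of the 5 tested members; points are libraries and black lines are group means. IGFBP7 lies below IGFBP3 in the STAT3 shRNA libraries and above it in the control libraries, and IGFBP1 is lowest in both groups.

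As a description without a test, the make-up of the family was set side by side. IGFBP7 gave 13.7 to 15.5% of the summed length-scaled level of the 6 genes in the STAT3 shRNA libraries and 28.8 to 29.6% in the control libraries. IGFBP6 gave 12.0 to 14.1% in the STAT3 shRNA libraries and 2.81 to 5.91% in the control libraries. IGFBP4 gave 46.3 to 50.0% in the STAT3 shRNA libraries and 41.3 to 45.8% in the control libraries. Shares depend on one another, and the IGFBP4 level itself was not called. It averaged 68.9 CPM per kb in the STAT3 shRNA libraries and 76.3 CPM per kb in the control libraries. The IGFBP3 share overlapped, at 19.0 to 25.8% in the STAT3 shRNA libraries and 21.4 to 26.5% in the control libraries. IGFBP1 stayed a small part, at 1.54 to 2.08% with the STAT3 shRNA and 0.133 to 0.200% with the control shRNA. The sum itself was 142.7 ± 9.44 CPM per kb in the STAT3 shRNA libraries and 175.8 ± 21.0 CPM per kb in the control libraries (SD, n = 3 per group). The sum was lower in each STAT3 shRNA library (134.2, 152.8 and 140.9) than in any control library (158.5, 169.8 and 199.2). With the union of exons as length the groups overlapped, at 112.6, 130.5 and 116.5 CPM per kb in the STAT3 shRNA libraries and 126.0, 139.0 and 162.3 CPM per kb in the control libraries.

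The genes whose log2 CPM ran most closely with each member over the 6 libraries were named as a description, since with 6 libraries in 2 groups a high correlation is common. For IGFBP1 they were ADAMTS16 (Pearson r = 0.999), MPZL2 and CREB3L4, all 3 called higher, and 53 of 14490 genes had an r over 0.99. For IGFBP7 they were THAP4 (r = 0.999), ABCC3 and RASA3, all called lower, and 101 genes passed the same r. For IGFBP6 they were IKBKG (r = 0.995), HAUS4 and DDB2, of which DDB2 was called. For IGFBP3 they were RPS3A (r = 0.997), SH2B3 and SIX4, and for IGFBP4 they were COX14 (r = 0.999), FN3KRP and SDF2L1, none of these called.

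The rest of the IGF system was then read from 8 lists with 95 distinct genes, of which 66 were tested. Of these 11 rose and 8 fell, or 16.7% and 12.1%, beside 9.39% and 8.13% of all genes, with a median log2 fold change of 0.02. PAPPA and STC1, among those that fell, passed the filter only through the control libraries, where they are high. These shares, and the counts of the single lists below, describe the genes and support no statement about the lists. The ligand gene IGF2 was at the floor, with 0, 1 and 0 counts in the STAT3 shRNA libraries and 2, 0 and 2 counts in the control libraries. IGF1 and INS were not analysed here. IGFALS, the acid-labile subunit that stabilises IGFBP3 complexes in blood, had at most 3 counts in any library. The receptors were expressed and none of the 3 passed the test. IGF1R, which signals for both IGFs, averaged 38.9 ± 1.62 CPM with the STAT3 shRNA and 43.2 ± 2.65 CPM in the control libraries (log2 fold change -0.15 ± 0.0947, 95% interval -0.36 to 0.06). IGF2R, which clears IGF2, had a log2 fold change of 0.03 ± 0.0846 (95% interval -0.16 to 0.22), and the insulin receptor INSR 0.20 ± 0.132 (95% interval -0.10 to 0.49).

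Of 9 tested proteases that cut IGF binding proteins and inhibitors of those proteases, 2 rose and 2 fell (median log2 fold change 0.04). Of all tested genes 9.39% rose and 8.13% fell. PAPPA, the pappalysin that cuts IGFBP4, had 5, 2 and 4 counts in the STAT3 shRNA libraries and 109, 103 and 101 counts in the control libraries. It lay at 0.188, 0.0982 and 0.218 CPM with the STAT3 shRNA, near the floor, and at 6.36, 5.50 and 5.32 CPM in the control libraries. The log2 fold change was -5.04 ± 0.305 (edgeR adjusted p = 1.31e-05), a larger fitted change than that of any IGFBP gene tested, and it held in all 14 alternatives (-5.22 to -4.79). STC1, a stanniocalcin that inhibits PAPPA, had 7, 6 and 5 counts in the STAT3 shRNA libraries and 13, 12 and 16 in the control libraries (-1.42 ± 0.406, edgeR adjusted p = 0.0419), a call lost in 10 of 13 alternatives, among them the omission of any 1 library (adjusted p up to 0.162). PAPPA and STC1, both of the genes that fell in this list, passed the filter only through the control libraries, where they are high. Its relative STC2 averaged 28.8 ± 1.07 CPM with the STAT3 shRNA and 31.6 ± 4.67 CPM with the control shRNA and was not called.

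MMP7, a metalloproteinase of epithelia that can cut IGFBP3 and IGFBP5, rose to 22.1, 17.4 and 19.9 CPM in the STAT3 shRNA libraries, against 6.24, 4.38 and 6.85 CPM in the control libraries (edgeR adjusted p = 0.000235). HTRA1, a secreted serine protease with an IGFBP-type domain, rose (0.59 ± 0.0922), with 60.5, 61.3 and 64.9 CPM in the STAT3 shRNA libraries, against 43.2, 38.4 and 42.4 CPM in the control libraries. Among IGFBP-related secreted proteins, 2 of 5 tested rose and 0 fell, beside 9.39% and 8.13% of all tested genes. CCN2, or connective tissue growth factor, lay at 26.3, 30.4 and 44.2 CPM with the STAT3 shRNA and at 15.5, 16.0 and 14.8 CPM in the control libraries. CCN3, which shares its IGFBP-type domain, rose 1.77-fold. The groups did not overlap for MMP7, HTRA1, CCN2 or CCN3, as for 35.7% of all tested genes. These genes were named for a small adjusted p, so the lack of overlap adds no support.

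**Figure D3:**
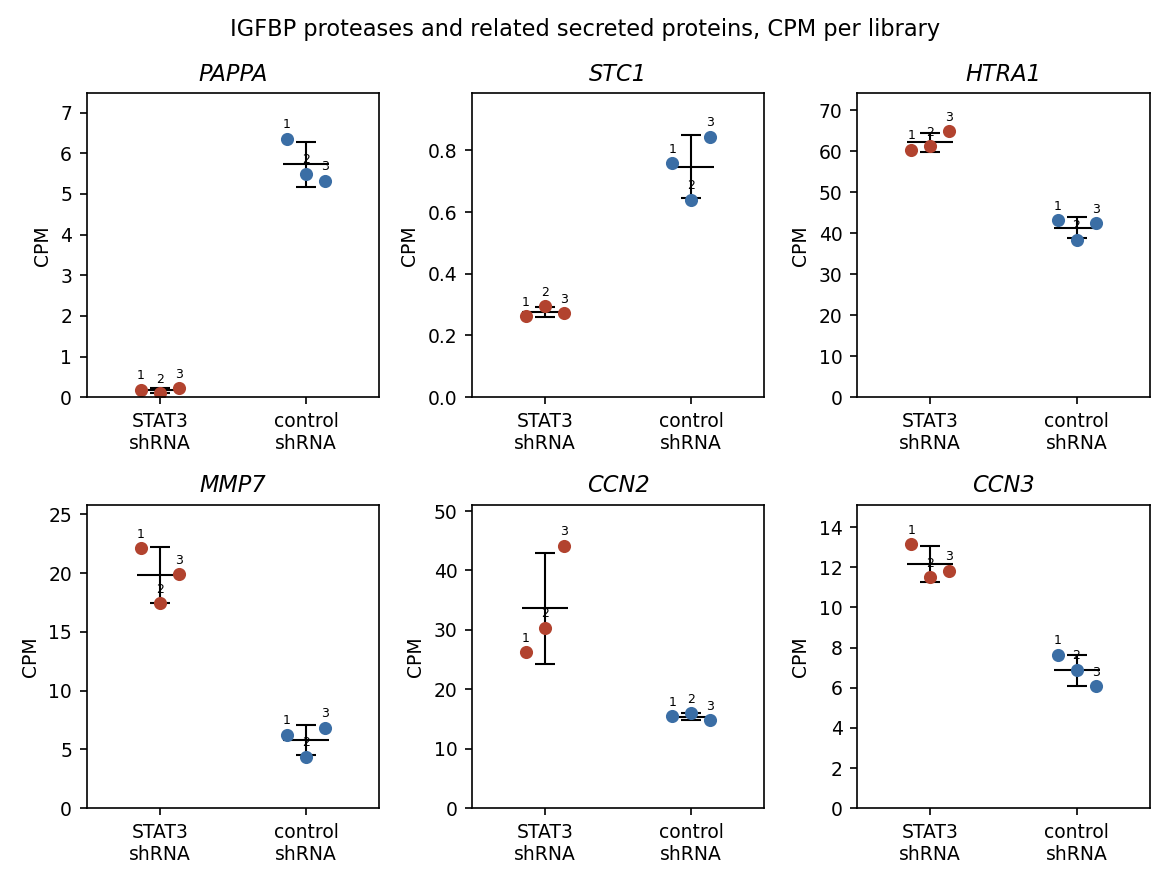
CPM of 6 genes for proteases, a protease inhibitor and IGFBP-related secreted proteins, by group; each point is 1 library and black marks give mean ± SD (n = 3 per group). PAPPA is near 0 in the STAT3 shRNA libraries, and HTRA1, MMP7, CCN2 and CCN3 lie higher there in each library.

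Of 9 tested surface and matrix partners, 0 rose and 3 fell, beside 9.39% and 8.13% of all tested genes. FN1, or fibronectin, a matrix protein that binds IGFBP3 and IGFBP5, lay at 0.752, 1.92 and 0.981 CPM with the STAT3 shRNA and at 13.4, 10.1 and 10.7 CPM in the control libraries. LRP1, an endocytic receptor that binds IGFBP3, fell (-0.42 ± 0.0908), a call lost without STAT3 shRNA library 1 (edgeR adjusted p = 0.0550) or 3 (0.0791), in a range over 14 alternatives of 0.00107 to 0.0791. The integrin chain ITGAV fell (-0.39 ± 0.115, edgeR adjusted p = 0.0448), a call lost in 9 of 14 alternatives, whose adjusted p ran up to 0.147. ITGA5, a chain of the fibronectin receptor that IGFBP1 can bind, averaged 51.9 ± 1.41 CPM with the STAT3 shRNA and 51.4 ± 3.39 CPM in the control libraries.

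Of 13 tested regulators of IGFBP1 transcription, 3 rose and 1 fell, beside 9.39% and 8.13% of all tested genes. EPAS1, the hypoxia-inducible factor HIF-2alpha, fell to 7.33, 5.99 and 6.27 CPM in the STAT3 shRNA libraries, against 46.8, 47.5 and 46.2 CPM in the control libraries. Among those that rose were the coactivator PPARGC1A (0.87 ± 0.159) and the pioneer factor FOXA1 (0.49 ± 0.0982), the last a call lost in 2 of 14 alternatives, without control library 2 (edgeR adjusted p = 0.0576) or STAT3 shRNA library 3 (0.0569), in a range over 14 alternatives of 0.000409 to 0.0576. FOXO1, the insulin-regulated activator of IGFBP1, averaged 11.6 ± 0.681 CPM with the STAT3 shRNA and 9.56 ± 1.49 CPM in the control libraries and was not called in any of 14 alternatives. Its relative FOXO3 (0.37 ± 0.124) was not called here but was called in 3 of 14 alternatives. FOXO4 (-0.28 ± 0.194), of the same family, had a negative log2 fold change and was not called. NFE2L2 (-0.46 ± 0.159), also in this list, was not called here but was called lower in 3 of 14 alternatives.

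Of 10 tested other insulin-repressed or FOXO-induced genes, 2 rose and 0 fell, beside 9.39% and 8.13% of all tested genes. CITED2, a transcriptional coregulator, rose 1.71-fold, at 52.2, 53.9 and 58.2 CPM with the STAT3 shRNA and 32.1, 30.5 and 33.1 CPM in the control libraries. TRIB1 (0.54 ± 0.143) rose, a call lost in 5 of 14 alternatives (adjusted p up to 0.138). PDK4, the starvation-induced pyruvate dehydrogenase kinase (0.12 ± 0.168), and TXNIP (-0.06 ± 0.0811), were not called. The other tested genes of this list were not called either and split in direction. IRS2 (-0.31 ± 0.104), BCL6 (-0.35 ± 0.119) and KLF15 (-0.73 ± 0.600) were negative. SESN1 (0.31 ± 0.130), CCNG2 (0.08 ± 0.115) and FBXO32 (1.19 ± 0.437) were positive. PCK1, a gluconeogenic enzyme gene repressed by insulin as IGFBP1 is, was at or near 0 CPM in both groups. Among 15 tested genes of IGF signalling through PI3K and AKT, 1 rose and 2 fell (median -0.09), beside the same shares of all genes. The receptor adaptors IRS1 (-0.82 ± 0.137) and SHC1 (-0.64 ± 0.0948) fell and the PI3K regulatory subunit PIK3R3 (0.56 ± 0.0873) rose. The IGF2 mRNA-binding proteins are RNA-binding proteins that share only part of a name with the family. Of these 3, IGF2BP1 rose (0.36 ± 0.0897, edgeR adjusted p = 0.0224), a call lost in 4 of 14 alternatives (adjusted p up to 0.107).

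**Figure D4:**
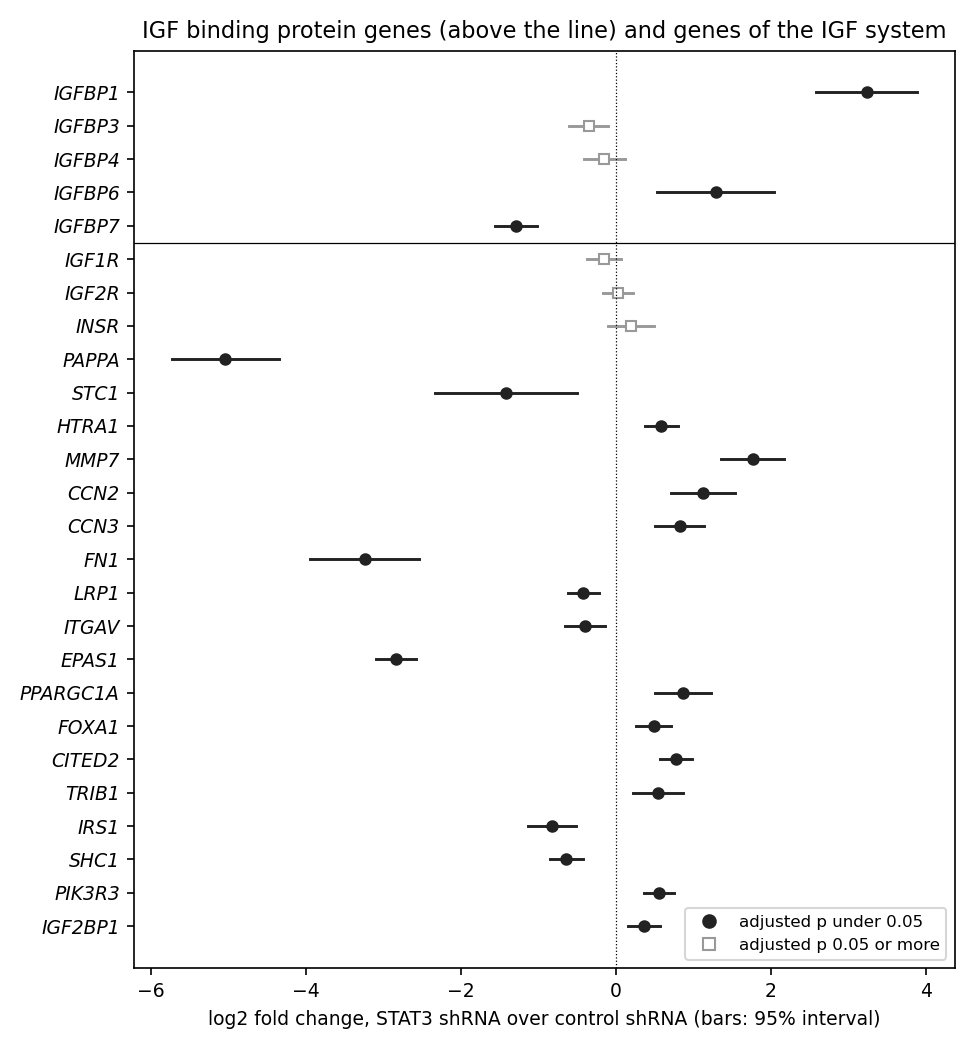
Log2 fold change (STAT3 shRNA over control shRNA) with 95% intervals of the 5 tested IGF binding protein genes, above the line, and of 21 named genes of the IGF system, below it. Filled circles passed an adjusted p of 0.05; PAPPA, FN1 and EPAS1 lie farthest to the left and IGFBP1 farthest to the right.

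Among the 2 annotated neighbours on each side of IGFBP1, IGFBP6 and IGFBP7, only IGFBP3, SPRYD3 and POLR2B were tested. None of them was called, beside 17.5% of all tested genes, and IGFBP3 was called in 3 of 14 alternatives. The other neighbours had no row or too few counts to be tested, so the loci as a whole were not read. On chromosome 12 the tested neighbour of IGFBP6 was SPRYD3, whose log2 fold change was 0.14 ± 0.108 (edgeR adjusted p = 0.407). SOAT2, on its other side, had 0, 1 and 0 counts in the STAT3 shRNA libraries and none in the control libraries. On chromosome 4 the tested neighbour of IGFBP7 was POLR2B, given above.

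**Figure D5:**
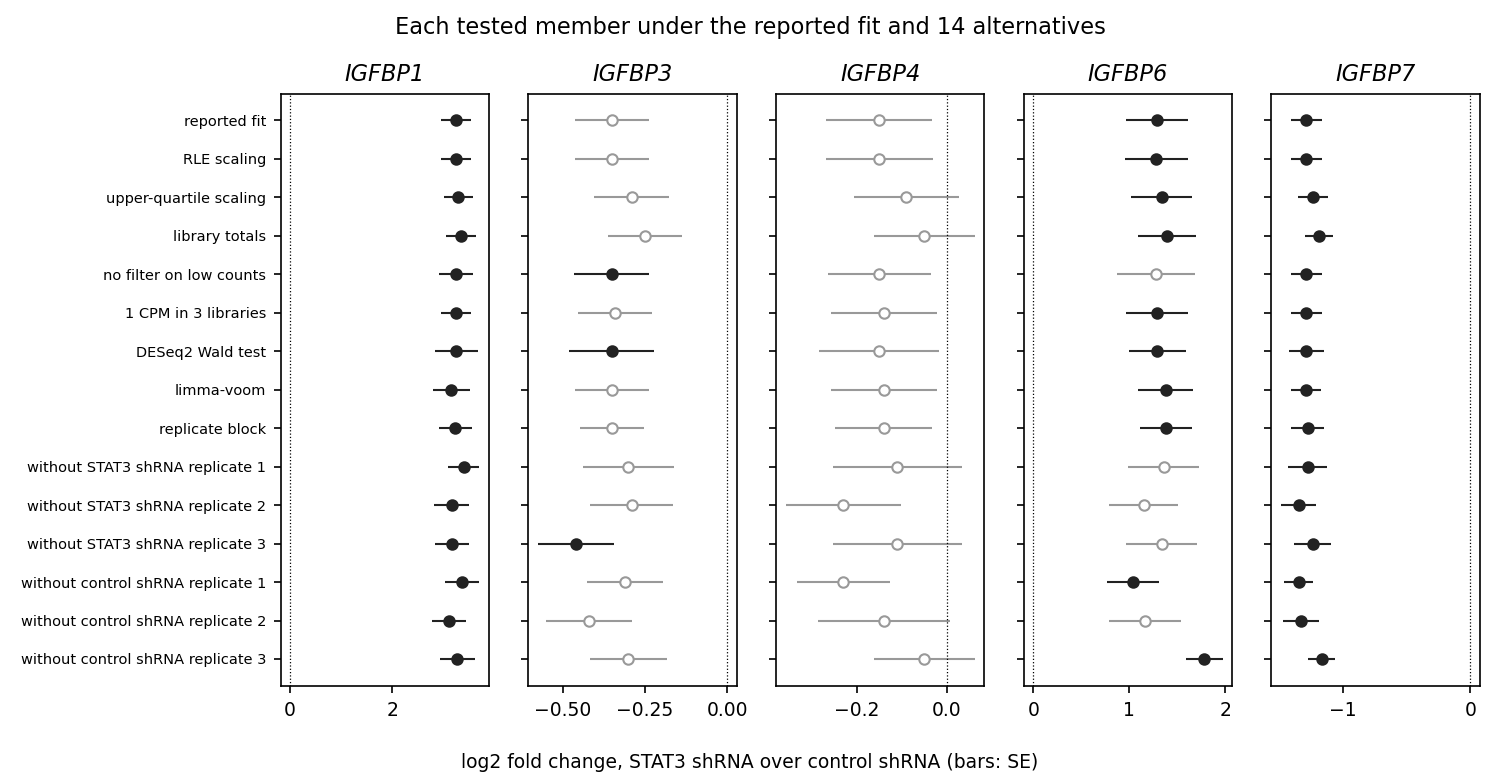
Log2 fold change ± SE of each tested member in the reported fit and in 14 alternatives, on a separate axis range for each gene; filled points passed an adjusted p of 0.05 and open points did not. IGFBP1 and IGFBP7 are filled in every alternative, IGFBP6 in 9 of 14, IGFBP3 in 3 of 14 and IGFBP4 in 0.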

How the data were processed

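The authors deposited whole-number counts per gene for 6 libraries in 1 table, per the file headers, and the values show no normalization. The library kit, strand setting, aligner, counting program, genome build and annotation used are not given in the sources at hand, so no coordinates were taken from the counted genes, and those printed are RefSeq windows on GRCh38.p14. Groups came from the titles. Of 26420 Ensembl identifiers, 25996 were found in GENCODE 29, used for transcript length, overlap and gene order.

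Counts were fitted in R 4.3.3 with edgeR 4.0.16: filterByExpr at its defaults (minimum count 10, minimum total 15), TMM scaling, robust quasi-likelihood F test, two-sided, model of group only, adjustment over all 14999 genes. The SE is the size of the log2 fold change divided by the square root of F. Correlations used log2(CPM + 0.5). Pairs of libraries within a group differed by a chi-square of 4.35 to 45.9 per degree of freedom, so none repeats another. On simulated data the fit called 44.6% of changes of 1.5-fold, 69.7% of 2-fold and 95.5% of 4-fold, and 5.48% of its calls were false.

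The members, lists, tests and rule for named genes were chosen with earlier results of these data known. Named genes are STAT3, all members, ligands and receptors, and up to 4 called genes per list by smallest adjusted p (or 2 by level). Also named are the 3 genes most correlated with each tested member and the 2 nearest annotated genes per side of each called member. Genes named outside the rule, chosen after their values were seen, are STC2, ITGA5, FOXO1, FOXO3, FOXO4, NFE2L2, PDK4, TXNIP and PCK1 and the cell type markers. IRS2, BCL6, KLF15, SESN1, CCNG2 and FBXO32 were also named in this way. A gene that the rule names is not reported here. Alternatives were other scalings (RLE, upper quartile, library totals), other filters, DESeq2 1.42.0, limma-voom (limma 3.58.1), a replicate block and leaving out each library.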

Additional observations from a re-analysis of the deposited data

How the results depend on the processing

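IGFBP1, IGFBP7 and STAT3 kept their direction and call in all 14 alternatives. IGFBP6 lost its call with no filter on low counts (log2 fold change 1.28, edgeR adjusted p = 0.168), and leaving out 1 library at a time gave 1.04 to 1.78. IGFBP3 was called with no filter on low counts (-0.35) and by DESeq2 (-0.35), and leaving out 1 library gave -0.46 to -0.29. Thus with no filter 1 member was higher and 2 were lower, DESeq2 gave 2 lower, and leaving out 1 library gave 1 to 2 higher and 1 to 2 lower. Over all genes, leaving out 1 library gave 796 to 2068 higher and 666 to 2030 lower, with the fewest without STAT3 shRNA library 1, and over the 8 lists 8 to 13 higher and 5 to 9 lower. With the union of exons as length, IGFBP6 ranked 3 and IGFBP7 ranked 4 in the STAT3 shRNA libraries. Leaving out 1 library, IGF2R ran from -0.01 (without control library 3) to 0.08, and over all 14 alternatives up to 0.12. STC1 had no value with the filter of 1 CPM in 3 libraries, which left 13 alternatives for it. The cause of these changes was not tested.

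With the replicate block, IGFBP1 had a log2 fold change of 3.23, IGFBP6 1.38 and IGFBP7 -1.28, all called, and 2278 genes were called in place of 2627. Same-numbered libraries deviated from their group means with correlations of 0.344, 0.217 and -0.284, so the numbers were not taken as pairs. Genes at a few counts, such as IGFBP2, IGF2 and IGFALS, were below what this depth can compare.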
